A study of Mus musculus with 6 samples.

Results

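The 10 genes of MHC class I antigen presentation described here were H2-K1, H2-D1, B2m, Tap1, Tap2, Tapbp, Psmb8, Psmb9, Psmb10 and Nlrc5. They were chosen by name, with earlier results of these data known. All 10 were found among the 33679 genes of the expression table. Messenger RNA was sequenced from mouse kidneys after unilateral ureteral obstruction, a surgical block of urine flow from a single kidney that leads to scarring. The tested kidneys carried a knockout of Cd248, the gene of endosialin, a glycoprotein of fibroblasts and pericytes; the kidneys set against them were wild type. Both groups were obstructed, and no unobstructed kidney is part of the comparison. The labels name 3 samples of each group. Values were available here for Cd248 KO replicate 1 and wild type replicates 1, 2 and 3, and Cd248 KO replicates 2 and 3 were not analysed here. The labels give no strain, age, sex, knockout allele or time after surgery, and they speak of pooled RNA. Nothing says that replicates came from separate animals, so each p-value below reflects only how far these libraries scatter, and that scatter could be technical.

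MHC class I molecules show peptides from inside the cell to CD8 T cells and NK cells. The proteasome cuts proteins, the TAP transporter carries the peptides into the endoplasmic reticulum, tapasin helps to load them onto a heavy chain paired with beta-2-microglobulin, and the loaded complex travels to the cell surface. Interferon gamma is known to raise many of these genes, partly through the coactivator NLRC5, and renal tubule cells are known to increase class I molecules during inflammation.

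None of the 10 genes passed the test between genotypes. All 10 had a positive difference (48.6% of all tested genes did), from 0.06 for B2m to 0.30 for Psmb9 and Tap1 on the log2(FPKM + 1) scale, with a median of 0.24 against -0.01 over all 16871 tested genes. FPKM counts sequenced fragments relative to the length of the transcript and to the number of fragments mapped in that library. The Cd248 KO library lay above every wild type library for 8 of the 10 genes, where 28% of all tested genes did so, and below every wild type library for 0 of 10 (31.2% of all tested genes). The genes of peptide cutting and transport (Tap1, Tap2, Psmb8, Psmb9, Psmb10) stood at 1.20 to 1.26 times the wild type mean. H2-K1 and Nlrc5 stood at 1.16 and 1.19 times that mean, and B2m, H2-D1 and Tapbp at 1.04 to 1.08 times. In bulk tissue such as this, more cells of a type and more RNA per cell cannot be told apart.

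Promoter sequences are given here for the chains of the class I molecule itself and for the region between Tap1 and Psmb9, the genes with the largest differences. RefSeq windows of 300 bases (build GRCm38.p6, the sequence of mm10), from 250 bases before the transcription start, were matched by symbol for 8 of the 10 genes; Tap2 and Nlrc5 had no match. Each sequence below reads 5′ to 3′ on the gene's own strand. Capitals mark matches to the NF-κB motif, to the interferon-stimulated response element (ISRE: GAAA, any 2 bases, GAAA) or to the CCAAT box, on either strand. The H2-K1 window is chr17:34000298-34000597 (minus strand), the H2-D1 window chr17:35262844-35263143 (plus strand), the B2m window chr2:122147437-122147736 (plus strand) and the Tap1 window chr17:34187306-34187605 (plus strand).
H2-K1: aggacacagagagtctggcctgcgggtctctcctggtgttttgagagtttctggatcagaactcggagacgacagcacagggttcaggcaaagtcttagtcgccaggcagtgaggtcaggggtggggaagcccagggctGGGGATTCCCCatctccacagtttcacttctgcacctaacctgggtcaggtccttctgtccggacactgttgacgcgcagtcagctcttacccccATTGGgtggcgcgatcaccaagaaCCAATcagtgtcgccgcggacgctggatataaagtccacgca
H2-D1: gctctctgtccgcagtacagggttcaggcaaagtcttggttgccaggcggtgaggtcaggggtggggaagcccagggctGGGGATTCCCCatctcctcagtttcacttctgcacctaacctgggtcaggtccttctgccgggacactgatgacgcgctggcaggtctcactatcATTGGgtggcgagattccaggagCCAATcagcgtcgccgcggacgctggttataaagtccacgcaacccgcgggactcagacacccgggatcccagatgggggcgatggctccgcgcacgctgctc
B2m: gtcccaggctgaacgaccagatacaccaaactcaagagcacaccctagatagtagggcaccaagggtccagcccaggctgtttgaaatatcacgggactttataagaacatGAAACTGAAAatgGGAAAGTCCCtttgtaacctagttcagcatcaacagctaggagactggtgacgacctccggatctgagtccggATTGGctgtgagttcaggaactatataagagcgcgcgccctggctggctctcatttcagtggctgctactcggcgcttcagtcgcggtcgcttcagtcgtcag
Tap1: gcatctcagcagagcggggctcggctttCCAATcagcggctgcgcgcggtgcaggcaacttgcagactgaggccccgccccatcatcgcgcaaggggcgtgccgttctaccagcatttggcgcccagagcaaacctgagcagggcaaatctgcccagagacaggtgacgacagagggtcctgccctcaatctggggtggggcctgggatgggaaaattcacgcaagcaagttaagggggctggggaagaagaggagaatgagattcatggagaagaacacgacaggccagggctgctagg

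The classical heavy chain genes H2-K1 and H2-D1 had the same NF-κB match, GGGGATTCCC, which overlaps a second match shifted by 1 base, followed by an inverted and then a direct CCAAT box. The direct box lies 53 to 49 bases before the start in H2-D1, but 8 to 12 bases after it in the printed H2-K1 window. Another RefSeq window of H2-K1, not printed, has a different start and puts that box 6 to 2 bases before it. B2m had an ISRE, GAAACTGAAA, at 139 to 130 bases before the start, next to an NF-κB match, GGAAAGTCCC. Over all 32851 promoter windows, an NF-κB match was present in 4.51%, an ISRE in 3.44% and a CCAAT box in 37.4%; among the 8 genes with a window, 3, 1 and 6 had them. The interferon gamma activated site (GAS, TTCNNNGAA) was in 1 of the 8, Psmb8, against 8.3% of all windows. Tap1 and Psmb9 are transcribed away from each other. Their RefSeq starts, on which the windows rest, lie 226 bases apart, while the GENCODE gene span of Psmb9 given below reaches past the Tap1 start. By the RefSeq starts, the window printed for Tap1 holds the Psmb9 start as well, and its CCAAT box is the same letters that stand 8 to 4 bases before that start. These matches are a description of letters and name no bound factor. Only exact matches to the patterns were counted, so a window without a match may still hold a site with other letters.

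By level per transcript length, the order in wild type kidneys ran from B2m through the heavy chains to the coactivator. B2m averaged 918 ± 57.8 FPKM in wild type kidneys (SD, n = 3), and only 0.0683% of the genes in the table had a higher wild type mean. It was followed by H2-D1, H2-K1, Tapbp, Psmb10, Tap2, Psmb8, Tap1, Psmb9 and Nlrc5. The wild type ranges of H2-D1 and H2-K1 overlapped, and so did those of Psmb10 and Tap2; the other neighbours in this order were apart. The Cd248 KO library kept the order except that H2-K1 was above H2-D1.

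**Figure D1:**
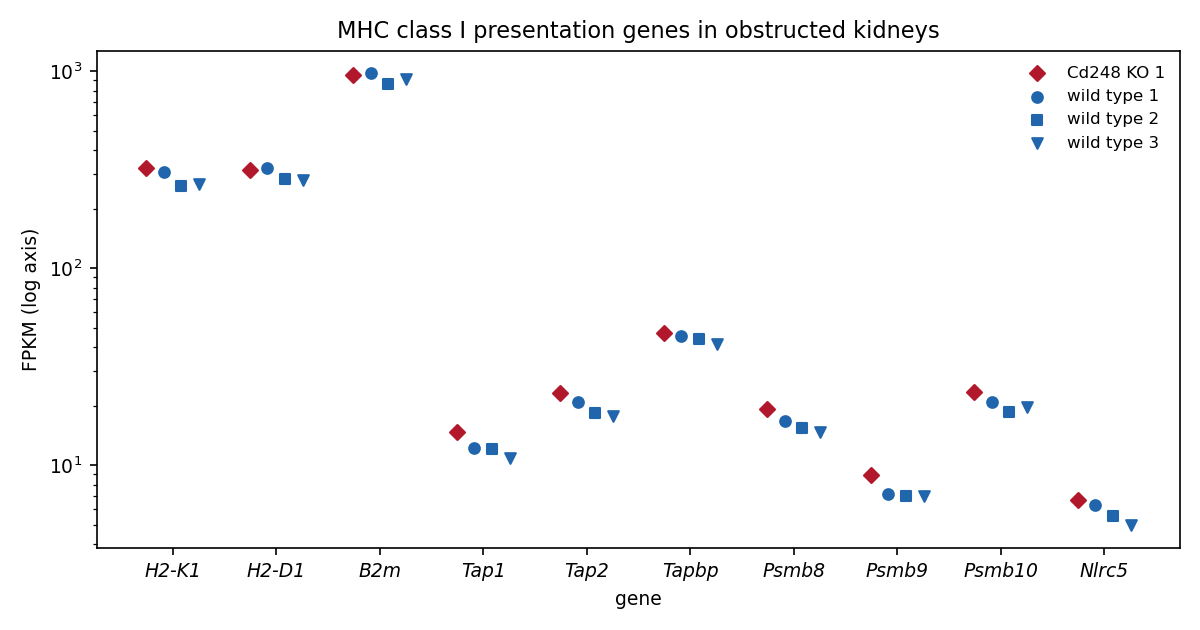
FPKM (log axis) of the 10 genes in the Cd248 KO library (red diamonds) and in wild type replicates 1 to 3 (blue circles, squares and triangles), each point a single library. B2m sits between 863 and 978 FPKM, the heavy chains between 261 and 325 FPKM and the remaining genes between 4.97 and 47.2 FPKM, with the genotypes close together for each gene.

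Among the structural chains of the class I molecule, the genotypes stood close together. H2-K1 (ENSMUSG00000061232; chromosome 17, 33996017 to 34000347, minus strand), a classical heavy chain, was at 325 FPKM in the Cd248 KO library, against 310, 261 and 267 FPKM in wild type replicates 1, 2 and 3. Its Cd248 KO value lay above the wild type range by less than that range spans. H2-D1 (ENSMUSG00000073411; chromosome 17, 35262730 to 35267499, plus strand), the other classical heavy chain of the list, was at 317 FPKM in the Cd248 KO library, against 322, 283 and 280 FPKM in wild type replicates. B2m (ENSMUSG00000060802; chromosome 2, 122147686 to 122153083, plus strand), the light chain of all class I molecules, was at 959 FPKM in the Cd248 KO library, against 978, 863 and 912 FPKM in wild type replicates. For both of these genes wild type replicate 1 was higher than the Cd248 KO library, so the groups overlapped. The differences were 0.22 for H2-K1 (SE 0.16, 95% interval -0.20 to 0.64, limma adjusted p = 0.669), 0.10 for H2-D1 (SE 0.15, -0.29 to 0.50, limma adjusted p = 0.828) and 0.06 for B2m (SE 0.18, -0.43 to 0.56, limma adjusted p = 0.919). The heavy chains belong to a family of similar genes. Of the 75-base windows of their coding transcripts in the reference, 1.12% for H2-K1 and 6.15% for H2-D1 occur unchanged in transcripts of other genes, H2-Q1 among them, so reads could be split and these values are uncertain. The reference is of C57BL/6J mice, and the match of its H2 alleles to those of the sequenced mice was not tested.

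The genes that bring peptides to the molecule were measured at lower levels than its chains. Tap1 (ENSMUSG00000037321; chromosome 17, 34187553 to 34197225, plus strand), a subunit of the peptide transporter, was at 14.7 FPKM in the Cd248 KO library, against 12.2, 12.1 and 10.9 FPKM in wild type replicates. Tap2 (ENSMUSG00000024339; chromosome 17, 34203527 to 34216321, plus strand), its partner subunit, was at 23.3 FPKM in the Cd248 KO library, against 21.01, 18.4 and 17.8 FPKM in wild type replicates. For both transporter subunits the Cd248 KO library was the highest and wild type replicate 1 the next. Tapbp (ENSMUSG00000024308; chromosome 17, 33915899 to 33929292, plus strand), tapasin, which bridges the transporter and the heavy chain, was at 47.2 FPKM in the Cd248 KO library, against 45.2, 43.8 and 41.5 FPKM in wild type replicates. Its Cd248 KO value lay above the wild type range by less than that range spans. The differences were 0.30 for Tap1 (SE 0.10, 95% interval 0.03 to 0.57, limma adjusted p = 0.437), 0.28 for Tap2 (SE 0.12, -0.05 to 0.61, limma adjusted p = 0.516) and 0.12 for Tapbp (SE 0.09, -0.14 to 0.37, limma adjusted p = 0.703). Of Tapbp windows, 1.36% occur in neighbouring gene models; Tap1, Tap2, B2m, the immunoproteasome genes and Nlrc5 share none with another gene.

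The immunoproteasome subunits, which replace the constitutive catalytic subunits when interferon is present, all lay above the wild type range in the Cd248 KO library. Psmb8 (ENSMUSG00000024338; chromosome 17, 34197721 to 34201454, plus strand), which takes the place of Psmb5, was at 19.3 FPKM in the Cd248 KO library, against 16.7, 15.5 and 14.8 FPKM in wild type replicates. Psmb9 (ENSMUSG00000096727; chromosome 17, 34181987 to 34187764, minus strand), which takes the place of Psmb6, was at 8.90 FPKM in the Cd248 KO library, against 7.20, 6.97 and 6.99 FPKM in wild type replicates. The wild type values of Psmb9 spanned a factor of 1.03 and the Cd248 KO value was 1.26 times their mean. Psmb10 (ENSMUSG00000031897; chromosome 8, 105935735 to 105938444, minus strand), which takes the place of Psmb7, was at 23.7 FPKM in the Cd248 KO library, against 21.02, 18.6 and 19.8 FPKM in wild type replicates. The differences were 0.28 for Psmb8 (SE 0.10, 95% interval 0.01 to 0.56, limma adjusted p = 0.451), 0.30 for Psmb9 (SE 0.08, 0.07 to 0.52, limma adjusted p = 0.374) and 0.25 for Psmb10 (SE 0.10, -0.02 to 0.53, limma adjusted p = 0.498). Nlrc5 (ENSMUSG00000074151; chromosome 8, 94434356 to 94527272, plus strand), the coactivator of class I genes, was at 6.66 FPKM in the Cd248 KO library, against 6.26, 5.55 and 4.97 FPKM in wild type replicates. Its difference was 0.22 (SE 0.14, 95% interval -0.15 to 0.60, limma adjusted p = 0.635), and its wild type values spanned a factor of 1.26.

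**Figure D2:**
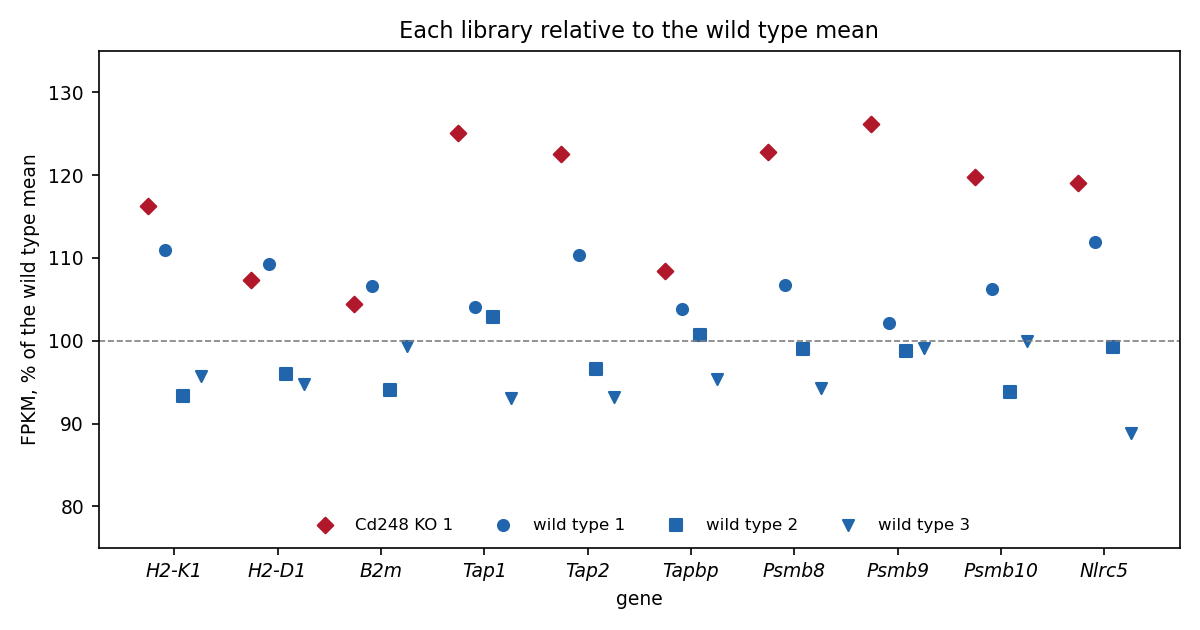
FPKM of each gene in each library as a percent of that gene's wild type mean (dashed line at 100), for the Cd248 KO library (red diamonds) and wild type replicates 1 to 3 (blue circles, squares and triangles). The Cd248 KO library lies between 104% (B2m) and 126% (Psmb9), and wild type replicate 1 is the highest wild type library for all 10 genes.

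Of the 16871 genes tested, 0.723% had a limma adjusted p under 0.05 in either direction, against 0 of the 10 class I genes. At an unadjusted p under 0.05, 3 of the 10 were higher in the Cd248 KO library (Psmb9 0.0205, Tap1 0.0366 and Psmb8 0.0459, in limma's test), where 5.14% of all tested genes were higher and 5.63% lower. In the authors' deposited table none of the 10 was marked significant; its smallest p-value was 0.06, for Tap1, and its q-values lay between 0.69 and 1. An exact permutation test of 1 library against 3 cannot give a two-sided p below 0.25 for any gene. With a single knockout library, every error given rests on the scatter of the wild type libraries, applied to the knockout library by assumption. For the SE, intervals and p-values, limma moved each gene's scatter toward the trend over all tested genes. Between 9.98% (Tap1) and 35.5% (B2m) of all tested genes had a larger difference than each of the 10. How many of the 10 were higher at an unadjusted p under 0.05 depended on the setting. That number fell when every library was given the same FPKM total, and without wild type replicate 2 or 3. It rose without wild type replicate 1.

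**Figure D3:**
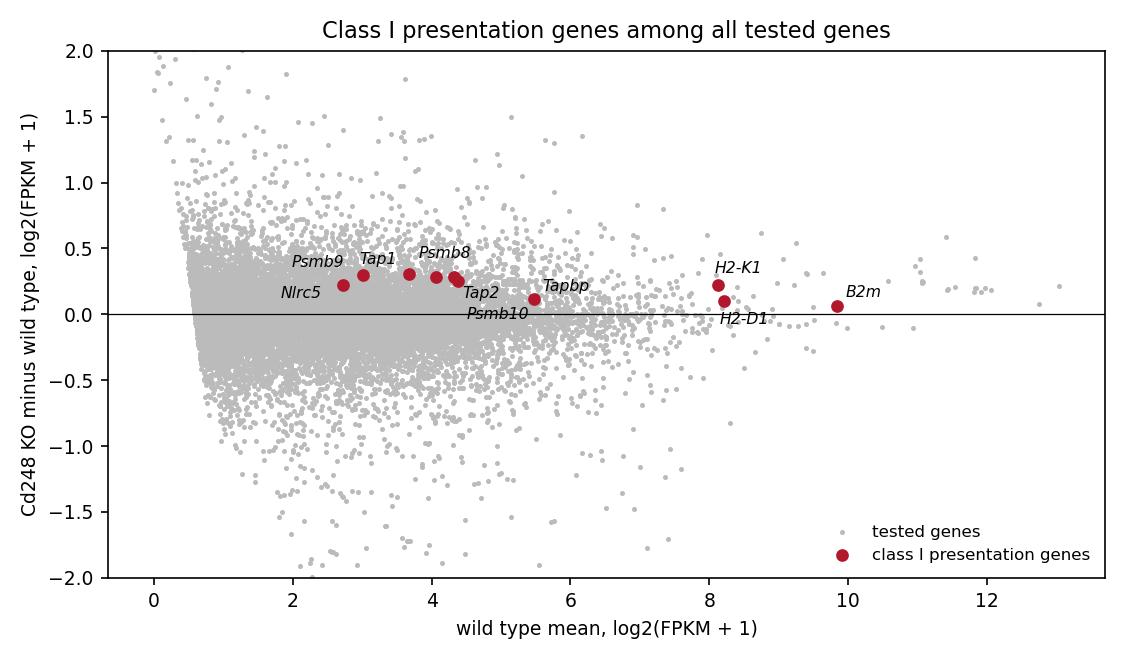
Difference between the Cd248 KO library and the wild type mean on the log2(FPKM + 1) scale (vertical axis) against the wild type mean on the same scale (horizontal axis), for all tested genes (grey) and the 10 class I presentation genes (red, named); 171 genes lie outside the plotted range of -2 to 2. The 10 genes form a flat row between 0.06 and 0.30, inside the cloud of the other genes.

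Among the wild type libraries, replicate 1 was the highest for 10 of 10 genes, as it was for 47.4% of all tested genes. The lowest was replicate 3 for 6 of the 10 genes and replicate 2 for 4 (47.4% and 27.0% of all tested genes). Their mean profile, centred on each gene's mean over the 4 libraries, was 0.16 in the Cd248 KO library, against 0.04, -0.09 and -0.12 in wild type replicates 1, 2 and 3 on the log2 scale. Without wild type replicate 1, the Cd248 KO library lay above both remaining wild type libraries for 10 of 10 genes (39.3% of all tested genes), with a median difference of 0.29. As replicate 1 was the highest wild type library for all 10, leaving it out could not lower this count. Of 4993 other genes averaging 10 FPKM or more, the 5 whose centred profile over the 4 libraries was closest to this mean profile were Syngr2, Firre, H2-Q4, Snhg8 and Rps19-ps6, at Euclidean distances of 0.0175 to 0.0245 log2 units, against a median of 0.284. H2-Q4, a class I heavy chain gene outside the list, was at 61.4 FPKM in the Cd248 KO library, against 57.6, 52.3 and 50.8 FPKM in wild type replicates.

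Ratios within a library do not change when all values of that library are multiplied by the same factor. Quantile normalization is not such a scaling, and the ratios were not computed under it. Each immunoproteasome subunit was set over the constitutive subunit it replaces. The Psmb9 to Psmb6 ratio was 0.274 in the Cd248 KO library, against 0.212, 0.223 and 0.225 in wild type replicates. The Psmb10 to Psmb7 ratio was 1.51 in the Cd248 KO library, against 1.22, 1.08 and 1.19 in wild type replicates. For both, the Cd248 KO library stood apart from the wild type libraries by more than these differ among themselves, with log2 ratio differences of 0.32 and 0.38. The Psmb8 to Psmb5 ratio was 0.226 in the Cd248 KO library, against 0.223, 0.208 and 0.204 in wild type replicates, close to replicate 1. Psmb5 itself was at 85.3 FPKM in the Cd248 KO library and 74.0 ± 1.4 FPKM in wild type (SD, n = 3), and Psmb6 was at 32.5 FPKM in the Cd248 KO library and 32.1 ± 1.6 FPKM in wild type. Psmb7 was at 15.7 FPKM in the Cd248 KO library, against 17.3, 17.2 and 16.6 FPKM in wild type replicates. H2-K1 over B2m was 0.339 in the Cd248 KO library, against 0.317, 0.302 and 0.293 in wild type replicates, and H2-D1 over B2m was 0.330 against 0.330, 0.328 and 0.307. The transporter subunits kept their proportion, with Tap1 over Tap2 at 0.630 in the Cd248 KO library, inside the wild type values of 0.583, 0.657 and 0.616. Exact two-sided permutation tests of the 6 log2 ratios gave p = 0.25 for Psmb9 over Psmb6, Psmb10 over Psmb7 and H2-K1 over B2m, the smallest p that 1 library against 3 allows, and 0.50 to 0.75 for the other ratios. Adjusted over the 6 ratios they lay between 0.50 and 0.75.

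**Figure D4:**
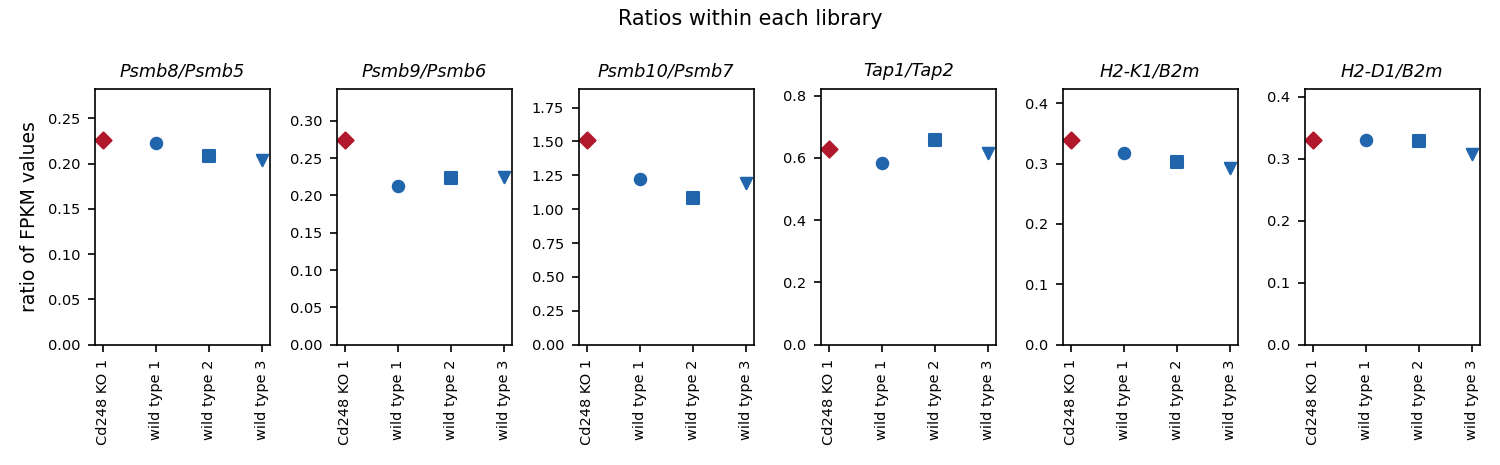
Ratio of FPKM values of the named gene pairs (vertical axes, starting at 0) in the Cd248 KO library (red diamond) and wild type replicates 1 to 3 (blue circle, square and triangle). The Psmb9 to Psmb6 and Psmb10 to Psmb7 ratios are the pair in which the Cd248 KO library, at 0.274 and 1.51, stands clear of the wild type libraries.

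The remaining genes of the pathway, in 5 lists, gave no call in limma's test in either direction (0.64% of all tested genes passed as higher and 0.083% as lower). Other class I and class I-like heavy chains had a median difference of 0.12 over the 18 of 24 that were tested, and 10 lay above every wild type library and 3 below, where 28% and 31.2% of all tested genes did. At an unadjusted p under 0.05, 2 of these 18 were higher and 0 lower (5.14% and 5.63% of all tested genes). H2-M3, which presents formylated peptides, was at 11.7 FPKM in the Cd248 KO library, against 9.41, 8.88 and 8.71 FPKM in wild type replicates (limma adjusted p = 0.348). H2-M2 was at 3.28 FPKM in the Cd248 KO library and 1.26 ± 0.19 FPKM in wild type (SD, n = 3; 0.92 on the log2 scale, limma adjusted p = 0.175). H2-T23, the ligand of NKG2 receptors known as Qa-1, was at 57.4 FPKM in the Cd248 KO library and 54.4 ± 1.2 FPKM in wild type. At the ends of the list stood Azgp1 (4.71 FPKM in the Cd248 KO library, 1.73 ± 1.5 FPKM in wild type), Mr1, which presents vitamin B metabolites (3.34 and 3.94 ± 0.19 FPKM), and H2-Q1 (3.59 and 3.86 ± 0.44 FPKM).

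Chaperones and peptidases of the endoplasmic reticulum and cytosol had a median difference of -0.01 over 15 genes, 3 of them above every wild type library (28% of all tested genes) and 4 below (31.2%); 0 of 15 passed at an unadjusted p under 0.05. Calreticulin (Calr) was at 143 FPKM in the Cd248 KO library and 140 ± 3.8 FPKM in wild type (SD, n = 3), Canx, the chaperone calnexin, at 74.7 and 78.0 ± 1.1 FPKM, and Pdia3, the disulfide isomerase of the loading complex, at 144 and 142 ± 9.6 FPKM. Erap1, the aminopeptidase that trims peptides in the endoplasmic reticulum, was at 12.7 FPKM in the Cd248 KO library and 12.7 ± 1.1 FPKM in wild type. Tapbpl, a relative of tapasin that edits the peptide cargo, was at 14.3 and 12.4 ± 0.67 FPKM (0.19 on the log2 scale, limma adjusted p = 0.564). At the ends of the list stood 0.26 for Lap3, a cytosolic aminopeptidase (57.0 FPKM in the Cd248 KO library, 47.5 ± 5.4 FPKM in wild type), -0.24 for Hspa5, the chaperone BiP (75.8 and 89.5 ± 2.3 FPKM), and -0.15 for Tpp2, a cytosolic peptidase (6.28 and 7.09 ± 0.38 FPKM). Constitutive proteasome subunits, activators and assembly factors, 21 genes, had a median of 0.05 and differences between -0.12 (Psma3) and 0.20 (Psmb5), with 9 above every wild type library (28% of all tested genes), 3 below (31.2%) and 0 at an unadjusted p under 0.05. Psma4 was the next highest at 0.14.

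Transcription and interferon gamma signalling genes had a median difference of -0.08 over 24 tested genes, with 6 above every wild type library and 11 below (28% and 31.2% of all tested genes). At an unadjusted p under 0.05, 2 were higher and 2 lower (5.14% and 5.63% of all tested genes). Rfx5, a subunit of the factor that binds MHC promoters and recruits NLRC5, was at 9.11 FPKM in the Cd248 KO library, against 7.51, 7.56 and 7.35 FPKM in wild type replicates (0.25, limma adjusted p = 0.430). Ciita, the coactivator of class II genes, was at 7.74 and 5.60 ± 0.60 FPKM (0.41, limma adjusted p = 0.435). Irf7, a factor of the type I interferon response, was at 9.66 FPKM in the Cd248 KO library, against 15.6, 17.7 and 15.4 FPKM in wild type replicates (-0.69, limma adjusted p = 0.191), and Nfya, a CCAAT-binding subunit, at 6.74 and 8.65 ± 0.66 FPKM (-0.32, limma adjusted p = 0.448). Of the interferon gamma axis, Irf1 was at 20.0 FPKM in the Cd248 KO library and 18.0 ± 1.7 FPKM in wild type. Ifngr1 was at 45.8 and 45.9 ± 2.9 FPKM. Both differences were smaller than those of the genes named before them. Ifng was at 0.36 FPKM in the Cd248 KO library and 0.36, 0.24 and 0.20 FPKM in wild type replicates, below the level needed for testing.

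Receptors that read class I molecules, listed together with related receptors, had a median difference of 0.42 over the 7 tested of 15 in the table. Of the 7, 5 lay above every wild type library and 0 below, and 3 were higher at an unadjusted p under 0.05 in limma's test. Of all tested genes, 28% lay above every wild type library, 31.2% below, and 5.14% were higher at that p. The level needed for testing was a mean over all 4 libraries, and with no such level the median was 0.06. Cd8a, a chain of the CD8 coreceptor, was at 4.85 FPKM in the Cd248 KO library, against 3.15, 2.77 and 1.82 FPKM in wild type replicates (0.73, limma adjusted p = 0.439). Klrd1 (CD94), the partner of NKG2 receptors, was at 4.14 FPKM in the Cd248 KO library, against 2.63, 2.33 and 2.41 FPKM in wild type replicates (0.57, limma adjusted p = 0.254). The inhibitory receptors Pirb and Lilrb4a were at 11.6 and 20.4 FPKM in the Cd248 KO library, inside their wild type ranges.

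Markers of several cell types differed between libraries in the same comparison. The summed FPKM of 13 T and NK cell markers was 44.4 in the Cd248 KO library, against 36.0, 28.3 and 24.2 in wild type replicates 1, 2 and 3, and 9 of the 10 tested lay above every wild type library (28% of all tested genes). The 9 B and plasma cell markers summed to 420.0 FPKM in the Cd248 KO library, against 98.2, 85.8 and 74.3, with Tnfrsf17 listed at 0 in wild type replicates 1 and 2. Jchain supplied 309.8 FPKM of that sum, and without it the other 8 markers summed to 110.0 FPKM in the Cd248 KO library, against 87.5, 79.2 and 69.0. Xbp1 was the largest of these 8, at 59.0 FPKM in the Cd248 KO library, against 49.3, 50.3 and 44.9. Mzb1 was at 17.6 FPKM, against 1.20, 1.24 and 1.35, and Cd79a at 6.69 FPKM, against 1.34, 1.13 and 0.83. Sdc1 was at 18.5 FPKM in the Cd248 KO library, against 32.06, 23.99 and 19.24 FPKM. Of the 7 B and plasma cell markers tested, 6 lay above every wild type library and 1 below (28% and 31.2% of all tested genes). The 5 markers of all leukocytes summed to 171 FPKM in the Cd248 KO library, against 184, 130 and 140. The 10 macrophage markers summed to 1240 FPKM, against 1280, 859 and 1340. The 6 dendritic cell markers summed to 23.9 FPKM, against 25.5, 20.5 and 18.7. None of these sums stood outside the wild type range. Singly, 2 of the 5, 1 of the 10 and 3 of the 6 lay above every wild type library, and 0 below (28% and 31.2% of all tested genes). The 7 endothelial markers summed to 79.9 FPKM in the Cd248 KO library, against 113, 127 and 100, and the 7 fibroblast and pericyte markers to 245 FPKM, against 524, 594 and 503, with all 7 of each list below every wild type library (31.2% of all tested genes). Proximal tubule markers, which identify the tissue as kidney, summed to 269 FPKM in the Cd248 KO library, against 104, 200 and 295. The part of these cell types in the class I values was not tested.

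The direction of the most abundant class I genes depended on how libraries were scaled. FPKM summed to 304425.6 in the Cd248 KO library, against 267394.4, 279294.1 and 285321.5 in wild type replicates, and immunoglobulin genes made up 5.98% of that sum in the Cd248 KO library, against 0.202%, 0.164% and 0.113%. Scaled to the same FPKM total, the median of all tested genes was -0.11, and that of the 10 class I genes 0.11, a gap of 0.23 where the deposited scale gave 0.24. On that scale H2-D1 (-0.03), B2m (-0.07) and Tapbp (-0.02) were below the wild type mean, and 3 of the 10 genes lay above every wild type library (13.8% of all tested genes). With the immunoglobulin genes left out before that scaling, 5 of the 10 did (19.8% of all tested genes). With quantile normalization H2-K1, H2-D1 and B2m were at -0.15, -0.28 and -0.21. Under it 6 of the 10 genes lay above every wild type library and 3 below (24.3% and 38.0% of all tested genes). The transporter, immunoproteasome and Nlrc5 differences stayed positive under each scaling run, between 0.10 and 0.33 log2 units, and none of the 10 genes passed limma's test under any.

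**Figure D5:**
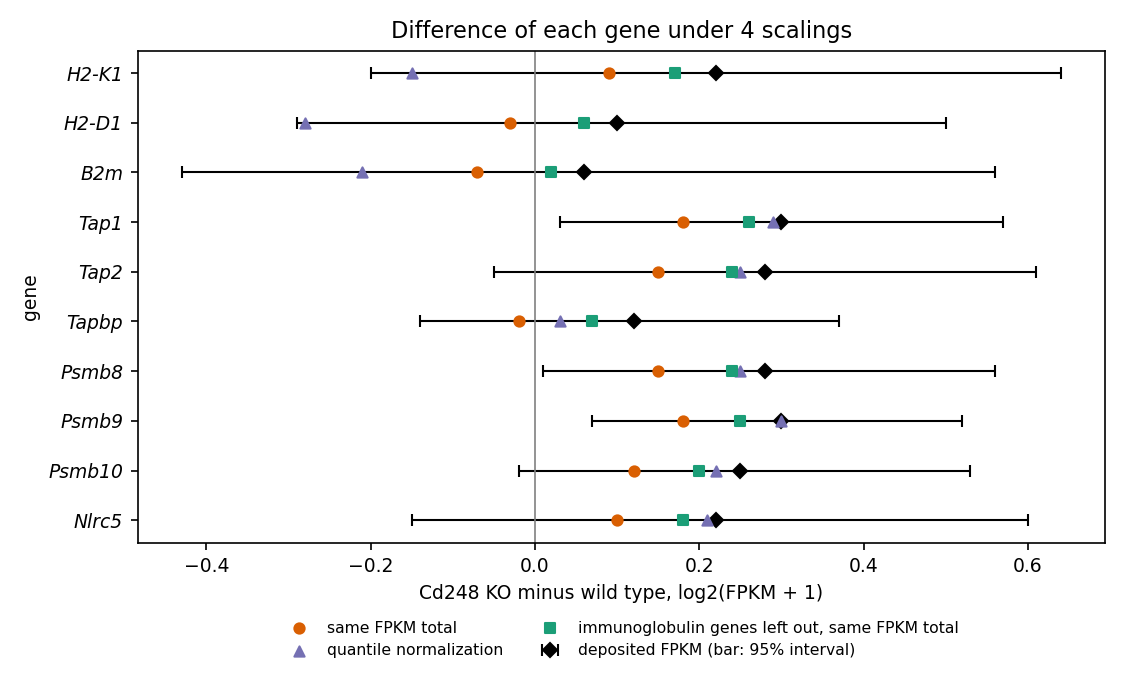
Difference between the Cd248 KO library and the wild type mean for each gene, in log2(FPKM + 1) units, on the deposited scale (black diamonds, bars the 95% interval of limma's fit) and under other scalings (coloured points). Points of H2-K1, H2-D1, B2m and Tapbp fall on either side of 0, while those of Tap1, Tap2, Psmb8, Psmb9, Psmb10 and Nlrc5 are all above 0.

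Cd248 was listed at 0 FPKM in the Cd248 KO library, against 9.03, 9.57 and 8.78 FPKM in wild type libraries, in the direction of the labels.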

How the data were processed

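Per the labels' protocols, RNA was extracted with Trizol and messenger RNA was isolated on oligo(dT) beads. The submitters' processing notes list cutadapt 1.9, FastQC, HISAT2 2.0.4 and the build mm10, without roles. Which program and annotation gave the expression values is not stated there. The authors deposited FPKM values with 2 decimals, per the file headers. The deposited fold change is a ratio and the deposited log2 fold change its log2, per the file headers. The deposited p-values and q-values are the authors' own, from a test the sources do not name. Sequencing depth is unknown, since there are no read counts and low values showed no whole-read steps. The table has 0 other columns of per-sample values.

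The analysis scale was log2(FPKM + 1), on which low genes change by less than their ratio. The 16871 genes averaging 0.5 FPKM or more across the 4 libraries were fitted with limma 3.58.1 in R 4.3.3 (mean-variance trend, two-sided, Benjamini-Hochberg over all tested genes, threshold 0.05; 2 residual and 2.32 prior degrees of freedom). The fit was also run on simulated data. There the knockout and wild type values were drawn with the same spread. That run therefore could not test whether wild type scatter applies to the knockout library. Coordinates come from GENCODE M21 (mm10), in which 33572 of 33679 gene IDs were found. The 10 genes and all lists were chosen with earlier results of these data known. All 10 are named. Of each list, genes that passed, the 2 highest and 2 lowest differences among genes averaging 1 FPKM or more, and fixed landmark genes are named (1 landmark gene is not reported here), beside the 5 genes of most similar profile. Alternatives changed the pseudocount, filter, scaling, variance model, immunoglobulin genes and wild type libraries.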

Additional observations from a re-analysis of the deposited data

How the results depend on the processing

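None of the 10 genes passed limma's test under any of 13 alternatives. When every library was given the same FPKM total, their median difference was 0.11. On that scale 3 lay above every wild type library (13.8% of all tested genes). The differences of H2-D1, B2m and Tapbp were -0.03, -0.07 and -0.02. With the immunoglobulin genes left out as well, 5 lay above (19.8% of all tested genes). With quantile normalization H2-K1, H2-D1 and B2m were at -0.15, -0.28 and -0.21; with the immunoglobulin genes left out first, an alternative chosen after seeing the data, only B2m was below 0, at -0.05. In all, 7 of 130 values changed sign; the cause was not tested. Without a single wild type library in turn, the median difference lay between 0.21 and 0.29. In these fits 8 to 10 genes lay above every remaining wild type library, where 32.4% to 39.3% of all tested genes did. Leaving out a library cannot lower that count. The log2 Tap1 to Tap2 ratio lay between -0.01 (without replicate 1) and 0.07. The proteasome list median was -0.08, against 0.05, with the same FPKM total. Calls over all genes, 122 on the deposited scale, were 39 with a pseudocount of 0.1 FPKM, 205 with no filter, 2 with the immunoglobulin genes left out, and 45 to 63 without a wild type library. No paired analysis was possible because a single knockout library had values. Depth is unknown, so counting error could not be separated from other spread.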
